A study of Homo sapiens with 6 samples.

Results

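The neurofilament genes NEFL, NEFM and NEFH and their relatives INA, PRPH, VIM and NES were examined in SH-SY5Y cells, a human neuroblastoma line used as a neuronal model, after knockdown of the RNA-binding protein PSF. These 7 genes were taken by symbol from the 21301 genes of the RNA-seq table, and all 7 were present. The cells received siControl or siPSF at 10 nM for 72 h, with 3 libraries per group, and poly(A) RNA was sequenced. Both groups are the same cell line, and siPSF was a single siRNA (siPSF #2). The paper calls the libraries biological triplicates. At an adjusted p under 0.05, the 7 genes gave no call after PSF knockdown with all 6 libraries, against 14.9% of all genes tested. When 1 library, siPSF replicate 3, was left out, NEFL and VIM were called higher. That fit called 7.07% of all genes higher.

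Intermediate filaments are rope-like polymers of coiled-coil proteins that give cells mechanical strength. In neurons the light, medium and heavy neurofilament chains assemble with α-internexin or peripherin, fill the axon and set its caliber, and they are carried along microtubules by motor proteins. Vimentin and nestin are filament proteins of immature, dividing and mesenchymal cells, and in developing neurons they give way to neurofilaments. Neuroblastoma cells, which come from the sympathoadrenal neural crest, can hold both kinds.

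The 7 genes are short and lie on 5 chromosomes of GRCh38. NEFM (gene ID 4741; chromosome 8, 24913761 to 24919093) and NEFL (gene ID 4747; chromosome 8, 24950955 to 24956612) are neighbors 31.9 kb apart on opposite strands. INA (gene ID 9118) is on chromosome 10, 103277138 to 103290346, NEFH (gene ID 4744) on chromosome 22, 29480218 to 29491390, and NES (gene ID 10763) on chromosome 1, 156668763 to 156677407. PRPH (gene ID 5630) is on chromosome 12, 49295147 to 49298686, and VIM (gene ID 7431) on chromosome 10, 17228241 to 17237593. By the GENCODE main transcript, NEFL, NEFH and NES have 4 exons and NEFM and INA have 3, while PRPH has 9 and VIM has 10. RefSeq places MIR6841 over NEFL and TROAP-AS1 over PRPH, and VIM is overlapped by the antisense lncRNA gene VIM-AS1, which was at 0.142 to 0.388 CPM against 53.7 to 92.4 CPM for VIM. The labels name a stranded library kit and the methods one that does not mark strand, so reads of VIM and VIM-AS1 in their overlap may not have been told apart. CPM stands for counts per 1000000 counts of the library, here after scaling of the libraries by the TMM method.

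The libraries held 101540520 to 132420931 counts, so each member rested on 862 counts (PRPH, lowest library) to 31639 counts (NEFL, highest library). SFPQ, the gene for PSF, stood at 372, 356 and 401 CPM in siControl and at 209, 193 and 165 CPM in siPSF libraries, a change of -0.99 in log2 CPM (adjusted p = 9.5e-05 by edgeR's quasi-likelihood method). Replicate 3 stood apart from the other 2 replicates in both groups: the chi-square per degree of freedom was 61.85 and 66.35 for the siControl pairs with replicate 3 against 36.23 for the other pair, and 59.54 and 65.70 against 22.61 in siPSF. Markers of noradrenergic neuroblasts were present, with HAND2 at a mean of 1177 CPM and GATA2 at 945 CPM in siControl, although TH, the first enzyme of catecholamine synthesis, was only at 0.741 CPM. Of the mesenchymal markers, PRRX1 is not in the table, 5 of the 8 tested were at a siControl mean under 3 CPM, and the other 3 were FN1 at 78.7, TWIST1 at 204 and SNAI2 at 3.20 CPM. Of the Schwann and glial markers, SOX10 is not in the table, and the 3 tested summed to 1.86 to 2.16 CPM in siControl and 1.48 to 3.14 CPM in siPSF.

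In siControl cells INA, NEFL and NEFM had the highest levels of the 7 genes. Levels between genes were compared as FPKM, which divides the counts by exon length and by depth. INA was at 53.4 ± 2.77 FPKM (SD, n = 3), NEFL at 50.8 ± 5.93, NEFM at 39.1 ± 5.81, VIM at 32.3 ± 1.55, NES at 24.4 ± 0.434, NEFH at 19.8 ± 2.14 and PRPH at 4.72 ± 0.761 FPKM. The library values of neighbors in this order overlapped for INA and NEFL, NEFL and NEFM, and NEFM and VIM, whereas NES lay below VIM, NEFH below NES and PRPH below NEFH in all siControl libraries. INA and NEFL ranked 1194 and 1269 among the protein-coding genes of the table, within the top 8.15% and 8.67%, and PRPH ranked 8355. So the light chain, the medium chain and α-internexin were at mRNA levels that overlapped from one to the next, the heavy chain was lower, and peripherin mRNA was present at a low level.

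**Figure D1:**
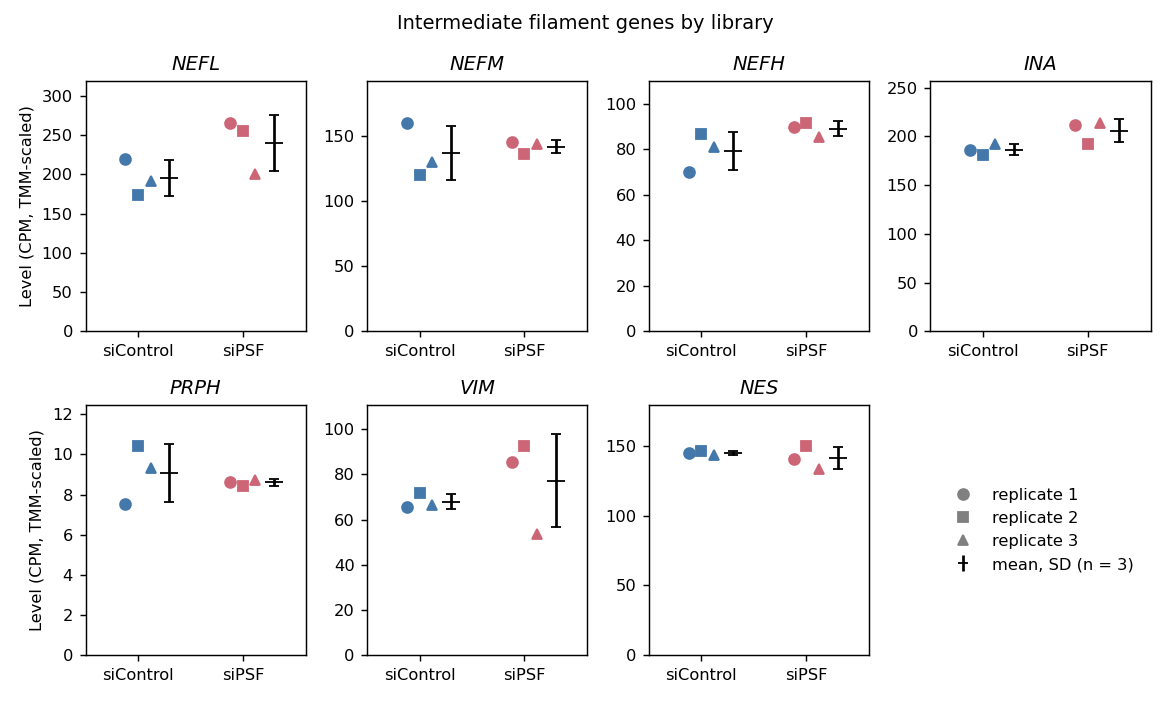
Levels of the 7 intermediate filament genes (y axis, CPM after TMM scaling, each starting at 0) in the siControl and siPSF libraries; symbols are the 3 replicates, and the bar shows the mean with its SD. In NEFL and VIM, siPSF replicate 3 lies below the other 2 siPSF replicates, and in INA the siPSF libraries lie just above the siControl libraries.

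None of the 7 genes was called higher or lower after siPSF. Calls were made with edgeR's quasi-likelihood method at a Benjamini-Hochberg adjusted p below 0.05, over 19694 genes, and such calls covered 14.9% of all genes (6.65% higher and 8.27% lower). DESeq2 also called 0 of the 7, against 18.4% of 19649 genes (8.02% higher and 10.4% lower). At an unadjusted p under 0.05, 1 of the 7 passed in edgeR, NEFL, against 29.8% of all genes. The median log2 fold change of the 7 was 0.15, beside 0.01 over all genes and 0.07 over the 3021 protein-coding genes whose gene length lies in the span of the members. Of those genes of like length, 12.8% were called, 9.80% higher and 2.98% lower. The signs of the small differences depended on the scaling: with FPKM rescaled to the same sum in each library, the median of all genes was -0.16, NEFL stayed positive, and NEFM, NEFH, INA and VIM were at -0.13, -0.02, -0.05 and -0.04, which is 0.03 to 0.14 above that median. PRPH and NES were at -0.24 and -0.23 with that rescaling, which is 0.08 and 0.07 below the median. Replicates are the libraries as labeled, and these p-values weigh the difference between the groups against the spread between libraries. That spread was estimated with information shared over genes. In RNA from whole cultures, a change in the share of cells that use a gene and a change in the RNA per cell cannot be told apart.

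NEFL, the light chain that the other neurofilament chains need for assembly, was at 220, 174 and 192 CPM in siControl and 266, 255 and 200 CPM in siPSF. Replicates 1 and 2 of siPSF were above every siControl library, and replicate 3 was below siControl replicate 1, so the groups overlapped. The log2 fold change was 0.30 (standard error 0.12, 95% interval 0.04 to 0.56, edgeR's adjusted p = 0.11), a fold of 1.23 with an interval of 1.03 to 1.47. Without siPSF replicate 3 it was 0.42 with an adjusted p of 0.011, and over the fits that each left out 1 library it ran from 0.22 to 0.42 with adjusted p-values from 0.011 to 0.36.

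The neighboring NEFM, whose product carries one of the long side arms of the filament, was at 160, 120 and 130 CPM in siControl and 145, 136 and 144 CPM in siPSF. The siPSF libraries lay inside the siControl range. Its log2 fold change was 0.05 (95% interval -0.18 to 0.28, edgeR's adjusted p = 0.79), so that the interval covered folds from 0.884 to 1.21. Leaving out siControl replicate 2 turned its sign, to -0.05.

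NEFH, the heavy chain, which is heavily phosphorylated in mature axons, was at 70.2, 86.7 and 81.1 CPM in siControl and 90.0, 91.7 and 85.3 CPM in siPSF. Its groups overlapped by 1 library on each side, since siControl replicate 2 was above siPSF replicate 3. Its log2 fold change was 0.17 (95% interval -0.03 to 0.37, edgeR's adjusted p = 0.25).

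INA, which encodes α-internexin, the filament protein of early neurons, was at 186, 181 and 192 CPM in siControl and 212, 192 and 214 CPM in siPSF. Every siPSF library was above every siControl library, though by under 1 CPM at the closest pair. Such a lack of overlap with siPSF higher was found in 16.7% of all genes (34.4% in either direction, 17.8% with siPSF lower) and in 1 of the 7 members. The log2 fold change was 0.15 (95% interval -0.03 to 0.32, edgeR's adjusted p = 0.25), with a range of 0.12 to 0.19 when each library was left out. On FPKM, where INA was at 52.7, 51.1 and 56.5 in siControl and 58.2, 51.8 and 57.9 in siPSF, the groups overlapped.

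PRPH encodes peripherin, the filament protein of peripheral and sympathetic neurons, and was at 7.55, 10.4 and 9.31 CPM in siControl and 8.65, 8.43 and 8.74 CPM in siPSF. The siPSF libraries were within the siControl range. A log2 fold change of -0.08 was found (95% interval -0.37 to 0.21, adjusted p = 0.73 by edgeR), and without siControl replicate 2 it was 0.02.

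VIM, the vimentin gene, showed the largest spread among the members, with 65.5, 71.8 and 66.5 CPM in siControl and 85.7, 92.4 and 53.7 CPM in siPSF. Replicates 1 and 2 of siPSF were above all siControl libraries, and replicate 3 was below all of them. The coefficient of variation was 26.8% in siPSF and 4.97% in siControl. With all 6 libraries the log2 fold change was 0.19 (95% interval -0.16 to 0.53, edgeR's adjusted p = 0.47). Without siPSF replicate 3 it was 0.39 with an adjusted p of 0.0070, and without siPSF replicate 2 it was 0.04.

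For VIM the deposited counts and FPKM values did not keep 1 ratio. The exon length implied by count and FPKM was 2058 to 2079 bases in 4 libraries, but 2342 in siControl replicate 2 and 2350 in siPSF replicate 3. Relative to the spliced length of the main transcript, 2154 bases, that was 0.96 to 0.97 in the 4 libraries and 1.09 in the other 2, while the other 6 members were at 1.08 to 1.11 in every library. VIM was at 32.2, 30.9 and 34.0 FPKM in siControl and 40.9, 43.3 and 22.2 FPKM in siPSF, so siPSF replicate 3 was again the lowest. On FPKM without that library (limma on log2(FPKM + 0.5), an alternative added after the values were seen), the log2 fold change was 0.38 for VIM (adjusted p = 0.011) and 0.35 for NEFL (adjusted p = 0.044).

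NES, which encodes nestin, a filament protein of neural progenitors, was the steadiest member in siControl, at 145, 147 and 144 CPM, a coefficient of variation of 0.928%. In siPSF it was at 141, 150 and 134 CPM, on both sides of the siControl values. NES had a log2 fold change of -0.04 (95% interval -0.21 to 0.13, edgeR's adjusted p = 0.77), which covers folds from 0.864 to 1.09. On FPKM rescaled to the same sum in each library, NES was at -0.23 (limma's adjusted p = 0.052).

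**Figure D2:**
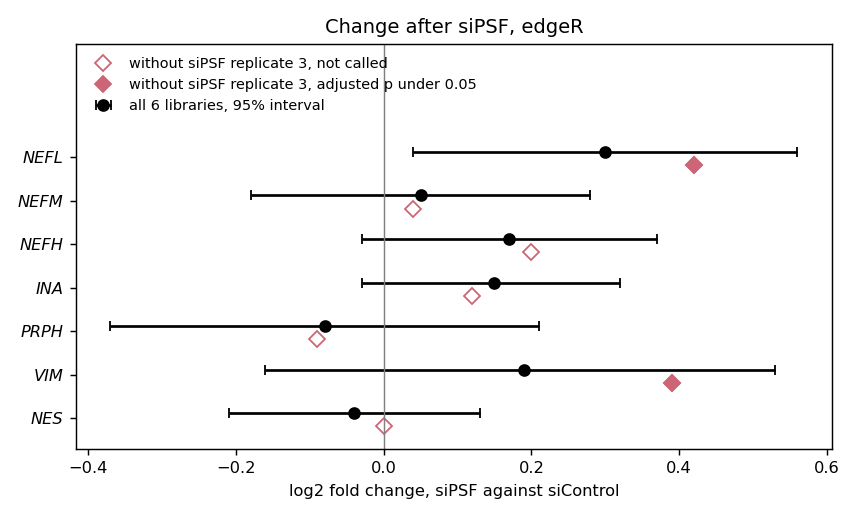
The log2 fold change of siPSF against siControl (x axis) for each of the 7 genes (y axis): black points with 95% intervals are the fit with all 6 libraries, and diamonds the fit without siPSF replicate 3, filled at an adjusted p under 0.05. With all libraries NEFL has an interval above 0 without passing the adjusted threshold; the NEFL and VIM diamonds lie at 0.42 and 0.39.

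Both NEFL and VIM therefore depended on siPSF replicate 3. The fit without it called 2 of the 7 genes, both higher, against 15.8% of 19863 genes, 7.07% higher. The other 5 members had adjusted p-values of 0.20 or more in that fit. The same library was also the lowest of the 3 siPSF libraries for LMNA, the lamin A/C gene (275, 295 and 177 CPM), and for the motor genes MYO5A (37.3, 38.7 and 25.1 CPM) and KIF5B (103, 90.3 and 64.3 CPM). It held the highest siPSF value of GATA3 (533 against 467 and 479 CPM), a transcription factor of sympathoadrenal precursors. The part of these differences in the NEFL and VIM results was not tested.

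The makeup of the filament mRNA was then compared within libraries, where the scaling of libraries has no effect. NEFL made up 21.1 to 24.3% of the summed FPKM of the 7 genes in siControl and 22.9 to 26.2% in siPSF. NEFL, NEFM, NEFH, INA and PRPH together made up 73.9 to 75.8% in siControl, and 75.0%, 72.5% and 79.7% in the 3 siPSF libraries. The share of VIM was 13.9 to 14.8% in siControl and 16.1%, 17.8% and 10.4% in siPSF. The VIM shares do not rest on the same exon length in all libraries. The implied length was 2342 bases in siControl replicate 2 and 2350 in siPSF replicate 3, against 2058 to 2079 in the other libraries. A longer length lowers the VIM share and raises the other shares in those libraries, and shares on a common length were not computed. The share of NES was 10.3 to 11.5% in siControl and 8.90 to 9.91% in siPSF, so that here the groups did not overlap, and the shares of the other 6 genes did overlap. These shares are built on FPKM, on which NES itself did not overlap either, at 24.0, 24.2 and 24.8 FPKM in siControl and 22.5, 23.6 and 21.2 FPKM in siPSF, while its CPM values did. On FPKM 26.1% of the 14830 genes with a mean of at least 0.5 lay lower in siPSF without overlap. Together the 7 genes took 0.0797 to 0.0873% of all counts in siControl and 0.0816 to 0.0933% in siPSF.

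**Figure D3:**
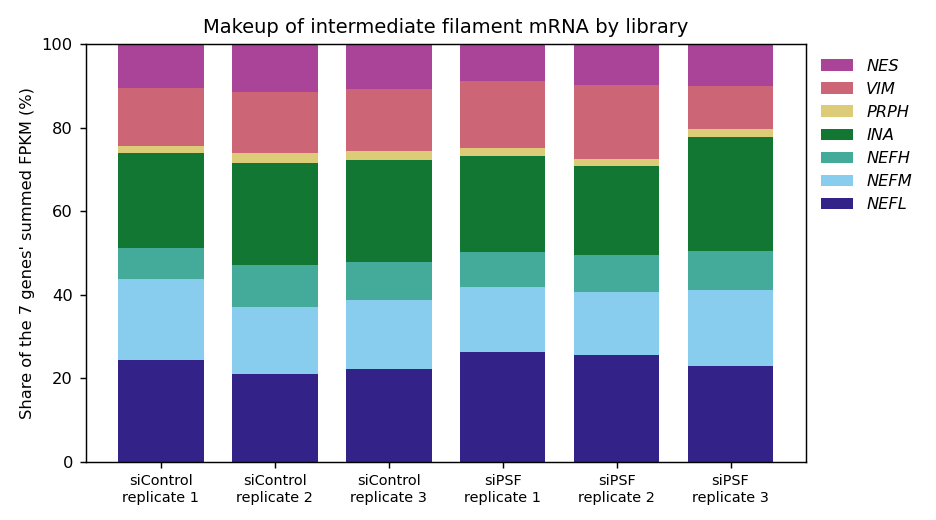
Stacked bars of the share of each gene in the summed FPKM of the 7 genes (y axis, percent, from 0 to 100) in each of the 6 libraries. NEFL and INA make up the largest shares together, PRPH the smallest, and the VIM share is lowest, at 10.4%, in siPSF replicate 3. For VIM, FPKM rests on a longer implied exon length in siControl replicate 2 and siPSF replicate 3 than in the other libraries.

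Ratios of subunits per exon length were compared by the exact two-sided permutation test, which cannot give a p under 0.10 with 3 libraries against 3, so that no ratio could pass 0.05. The NEFM to NEFL ratio was 0.803, 0.757 and 0.744 in siControl and 0.597, 0.587 and 0.790 in siPSF, so that replicates 1 and 2 of siPSF were below all siControl libraries and replicate 3 was among them. Its mean log2 difference was -0.24 (exact permutation p = 0.30, adjusted p = 0.625 over 5 ratios), and it ran from -0.37 without siPSF replicate 3 to -0.16 without siPSF replicate 2. The PRPH to NEFL ratio differed by -0.36 on the log2 scale (exact permutation p = 0.20, adjusted p = 0.625), with 0.0685, 0.119 and 0.0968 in siControl and 0.0647, 0.0660 and 0.0871 in siPSF. It was -0.58 without siControl replicate 1 and -0.18 without siControl replicate 2. The log2 differences of the NEFH to NEFL, INA to NEFL and NES to VIM ratios were -0.12, -0.15 and -0.19 (exact permutation p = 0.70, 0.50 and 0.40; adjusted p = 0.70, 0.625 and 0.625). With each library left out, these 3 differences ran from -0.30 to 0.02, from -0.31 to -0.05 and from -0.40 to -0.08, and the sign of NEFH to NEFL turned without siControl replicate 2. In all 5 ratios the groups overlapped.

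Across the 6 libraries the members did not follow a single pattern. The correlation of log2 CPM was 0.53 between the neighbors NEFL and NEFM, 0.67 between NEFL and VIM, -0.94 between NEFM and PRPH and -0.84 between INA and NES (Pearson's r, n = 6 libraries of 2 treatments, given as a description). Among the 10491 other genes of at least 10 CPM, those most like each member were SRD5A3 (r = 0.992) and FBXO9 (0.990) for NEFL, DLX6 (0.995) and PBDC1 (0.976) for NEFM, and CHKB-CPT1B (0.972) and MAPRE3 (0.962) for NEFH. For INA they were AEBP2 (r = 0.997) and VTA1 (0.996), for PRPH PLPP5 (0.975) and HAND1 (0.949), for VIM MRPS27 (0.995) and LOC284454 (0.994), and for NES B4GALNT1 (0.994) and VPS39 (0.990). An r of at least 0.9 was shared with 542 genes for INA but with 12 for PRPH and 19 for NEFM, and all points come from the same 6 libraries.

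Further genes of the intermediate filament family gave no calls in edgeR with all 6 libraries either. Of 16 further family genes looked for, 13 were tested and DES, GFAP and BFSP2 are not in the table. None of the 13 was called by edgeR, against 14.9% of all genes. In edgeR 2 of them had an unadjusted p under 0.05, against 29.8% of all genes. DESeq2 called 1, KRT19, lower, against 10.4% of all genes. BFSP1, KRT8, KRT15 and KRT18 were at a siControl mean of 0.400 CPM or less. The median log2 fold change of the 13 genes was 0.15, with values from -0.49 (KRT19) to 0.78 (KRT18). The nuclear lamins were the most abundant: the mean of LMNA was 205 ± 18.4 CPM for siControl and 249 ± 63.2 CPM for siPSF (± SD of 3 libraries; log2 fold change 0.28, edgeR's adjusted p = 0.25), LMNB1 at 98.3 ± 12.2 and 109 ± 12.5 CPM and LMNB2 at 147 ± 10.5 and 137 ± 7.46 CPM. Without siPSF replicate 3, LMNA was called higher, by 0.48 in log2 CPM (adjusted p = 0.0031 by edgeR), the only one of these genes that was called in that fit. The same fit called 7.07% of all genes higher. Among the keratins KRT10 was at 41.9 CPM in siControl, and KRT8 and KRT18, the keratin pair of simple epithelia, were at 0.0772 and 0.400 CPM; both have many processed pseudogenes that can share reads.

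Of 12 tested genes for proteins that anchor or carry the filaments, 6 fell and 1 rose, against 8.27% lower and 6.65% higher among all genes, and the median log2 fold change was -0.34. DST and MACF1, giant plakins that link filaments with microtubules and actin, had log2 fold changes of -0.47 and -0.34 (edgeR's adjusted p = 0.018 and 0.024). DST was at 82.2, 96.9 and 116 CPM in siControl and 66.5, 76.8 and 69.3 CPM in siPSF, without overlap. PLEC, the gene for plectin, had a log2 fold change of 0.08 (edgeR's adjusted p = 0.60).

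Among the motors, DYNC1H1, the heavy chain of cytoplasmic dynein, was at 833, 919 and 934 CPM in siControl and fell to 649, 746 and 677 CPM in siPSF, a log2 fold change of -0.38 (edgeR's adjusted p = 0.016). MYO5A, a myosin that binds the light chain, fell by 0.53 in log2 CPM (adjusted p = 0.036 by edgeR), and KIF5C, a neuronal kinesin-1 heavy chain, fell by 0.33 (edgeR's adjusted p = 0.045). The related KIF5A and KIF5B had log2 fold changes of -0.06 and -0.37 (edgeR's adjusted p = 0.77 and 0.12). TCHP, which encodes the keratin-binding protein trichoplein, fell by 0.34 (edgeR's adjusted p = 0.020), and SYNC, which encodes syncoilin, rose from 0.769 to 1.41 CPM (log2 fold change 0.87, edgeR's adjusted p = 0.038). The SYNC call held in 1 of 6 leave-one-out fits, without siPSF replicate 3.

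The 4 of these 12 genes that are 100 kb or longer (DST, 497 kb; MACF1, 403 kb; MYO5A, 222 kb; KIF5C, 152 kb) were all among the 6 lower ones, and among all protein-coding genes of that length 25.1% were called lower. DYNC1H1 is 91.9 kb and the longest of the 7 members, INA, 13.2 kb. The part of gene length in the linker and motor result was not tested. The number of lower calls in this list went from 6 to 0 without siControl replicate 2, to 2 without siControl replicate 3 and to 2 without siPSF replicate 1, and it was 6 without siPSF replicate 3.

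**Figure D4:**
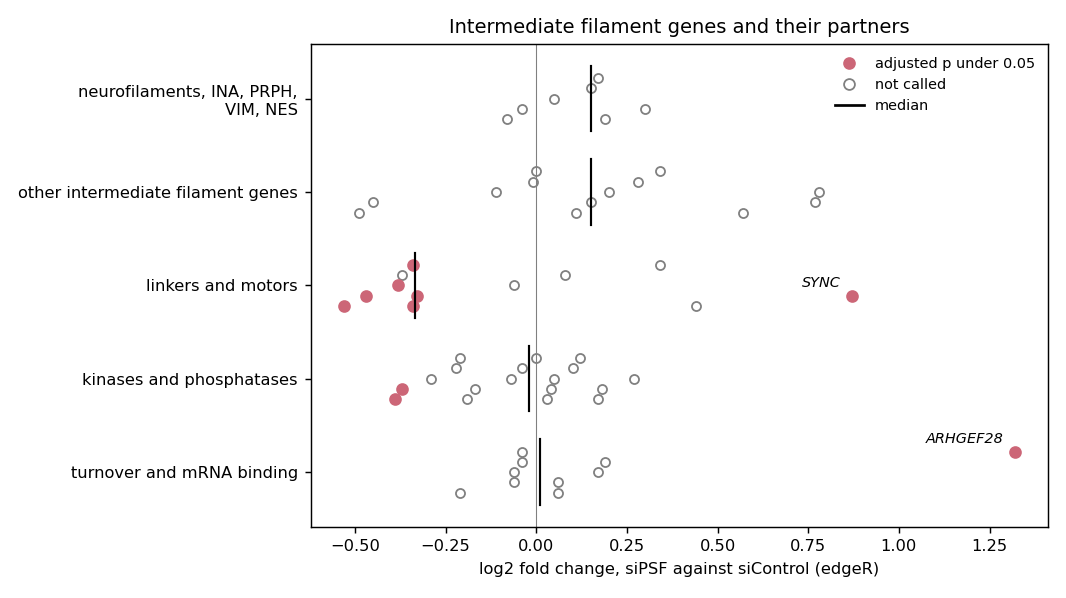
The log2 fold change of siPSF against siControl (x axis, edgeR) for the 7 members and 4 lists of related genes (y axis); each circle is a gene, filled at an adjusted p under 0.05, and the vertical line is the median of the list. The linkers and motors sit at a median of -0.34 with 6 genes called lower, and ARHGEF28 lies at 1.32.

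Of 18 kinases and phosphatases that act on filament proteins, 2 fell and 0 rose in edgeR (5 of the 18 had an unadjusted p under 0.05), with a median log2 fold change of -0.02. The calls were 11.1% of the list, near the 14.9% of all genes, and 29.8% of all genes had an unadjusted p under 0.05. These 2 were ROCK2, a kinase that also acts on the actin cytoskeleton (-0.37, edgeR's adjusted p = 0.040), and AURKB, a mitotic kinase that phosphorylates vimentin (-0.39, edgeR's adjusted p = 0.018). CDK5, the kinase of the neurofilament tail repeats, had a log2 fold change of -0.04 and its activator CDK5R1 of 0.18 (edgeR's adjusted p = 0.80 and 0.29). In the leave-one-out fits the ROCK2 call held 2 times of 6 and the AURKB call 3 times of 6, and neither held without siControl replicate 2 or without siPSF replicate 2.

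Of 10 genes tested for turnover of filament proteins or binding of their mRNA, 1 was called, a share of 10.0% near the 14.9% of all genes. ARHGEF28, a gene of 316 kb for a guanine nucleotide exchange factor that also binds NEFL mRNA, was at 6.19, 4.41 and 4.86 CPM in siControl and 13.4, 15.3 and 9.90 CPM in siPSF, with every siPSF library above every siControl library. It rose 2.49-fold (95% interval 1.92 to 3.24), which is 1.32 in log2 with an SE of 0.17 and an adjusted p of 5.1e-04 by edgeR. All 6 leave-one-out fits called it, at log2 fold changes from 1.18 to 1.47, while limma on rescaled FPKM gave 0.78. The limma fit adds 0.5 to each FPKM before the log. This shrinks the fold change of a gene as low as ARHGEF28, at means of 0.761 FPKM in siControl and 1.8 FPKM in siPSF. TRIM2, a ubiquitin ligase of the light chain, had a log2 fold change of -0.21 (edgeR's adjusted p = 0.25). TARDBP, an RNA-binding protein also studied in motor neuron disease, was at -0.06 (edgeR's adjusted p = 0.67).

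Cell type markers moved in part. Of 9 noradrenergic neuroblast markers, DBH and TH, enzymes of catecholamine synthesis, fell and GATA3 rose (log2 fold changes of -0.68, -1.20 and 0.30; edgeR's adjusted p = 0.0024, 0.025 and 0.032). Among all genes, edgeR called 8.27% lower and 6.65% higher. The GATA3 call was lost in all 6 leave-one-out fits, and the TH call without siControl replicate 2 and without siControl replicate 3. The list summed to 4751 to 5416 CPM in siControl and 4222 to 4834 CPM in siPSF. Of the 8 mesenchymal markers tested, FN1, the fibronectin gene, fell by 0.60 in log2 CPM (adjusted p = 8.5e-04 by edgeR) and the other 7 were not called by edgeR, whereas DESeq2 called 2 of them, COL1A1 and LUM, higher, against 8.02% of all genes. The list summed to 276 to 299 CPM in siControl and 236 to 268 CPM in siPSF. Without siPSF replicate 3, SNAI2 and LUM of this list were also called higher (log2 fold changes of 0.59 and 0.74, edgeR's adjusted p = 0.019 and 0.011), as VIM and NEFL were. SNAI2 and LUM were at siControl means of 3.2 and 1.56 CPM, against 78.7 CPM for FN1. The same fit called FN1 lower, at -0.64 (edgeR's adjusted p = 2.4e-04). TWIST1 was at -0.14, the remaining genes of the list were above 0, and none of these was called. In that fit 7.07% of all genes were called higher. The part of cell type makeup in the VIM and NEFL values was not tested.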

How the data were processed

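RNA-seq of SH-SY5Y cells treated with siControl or siPSF (3 libraries each, groups from the sample titles) was analyzed. The authors deposited 1 table. Its estimated counts are whole numbers per gene and library without normalization: 110 of 1482 values of 1 stand beside an FPKM of 0 or one that implies over 100000 bases of exon, and 0 values are below 1. The authors also deposited FPKM values, which the methods call RPKM. The methods name Bowtie 2, TopHat, hg38 and RefSeq. The submitters' processing notes list Trimmomatic, HISAT2 2.1.0, StringTie 2.1.3b and GRCh38. The labels name a stranded mRNA kit (TruSeq stranded mRNA LT) and the methods TruSeq RNA kit v2, and whether strand was used in counting is not given in the sources used here.

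Counts were filtered with filterByExpr (19694 genes left), normalized by TMM (factors 0.964 to 1.05) and fitted with edgeR (quasi-likelihood; no replicate block). The 95% intervals come from that fit. A call is a Benjamini-Hochberg adjusted p under 0.05 over all genes tested. Gene positions are from RefSeq (GRCh38.p14; 97.7% of gene IDs matched) and exons from GENCODE. Ratios used counts over implied exon length. All members are named; from each list, called genes (at most 6) and the 3 most abundant per length are named by rule, and others were chosen after their values were seen. Some genes of the lists are counted but not reported here by name. The members and lists were chosen with earlier results of these data known. Alternatives were DESeq2's size factors and Wald test, no filter, a replicate block, each library left out, and limma on log2(FPKM + 0.5) or log2(FPKM + 0.1) with a mean of at least 0.5, without that filter, or rescaled to 1 sum per library. The fits were checked on simulated data. Software was DESeq2 1.42.0, edgeR 4.0.16, limma 3.58.1, Python 3.11.15 and R 4.3.3.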

Additional observations from a re-analysis of the deposited data

How the results depend on the processing

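With each library left out in turn, 1500 to 3140 genes were called, 572 to 1405 higher and 928 to 1735 lower, with the lowest counts without siControl replicate 2; 0 to 2 members were called, the 2 being NEFL (log2 fold change 0.42) and VIM (0.39) without siPSF replicate 3. On FPKM without that library, an alternative added after the values were seen, NEFL was at 0.35 and VIM at 0.38, again 2 members called, NEFM turned to -0.03, and 697 genes were called higher. With all libraries on FPKM, 736 (+ 0.5), 737 (+ 0.1) and 634 (no filter) genes were called higher, with NEFM at -0.02 in each. After rescaling FPKM to 1 sum, 463 genes were called higher and 3409 lower, and the median of all genes was -0.16. There NEFM, NEFH, INA and VIM turned to -0.13, -0.02, -0.05 and -0.04, which is 0.03, 0.14, 0.11 and 0.12 above that median. PRPH and NES stayed negative there, at -0.24 and -0.23, below that median. Without siControl replicate 2, NEFM was at -0.05 and PRPH at 0.02. The cause was not tested.

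Leave-one-out ranges of the log2 fold change were 0.22 to 0.42 for NEFL, -0.05 to 0.18 for NEFM, 0.09 to 0.22 for NEFH, 0.12 to 0.19 for INA, -0.20 to 0.02 for PRPH and 0.04 to 0.39 for VIM, and NES had -0.08 at the lowest. The replicate block called 0 members, with NEFL at 0.30 and VIM at 0.15; same-numbered libraries correlated at -0.000386, 0.399 and 0.143, so the numbers were not taken to pair the samples, and siControl replicate 1 correlated best with siPSF replicate 2 (0.163). The lowest count of a member was 862, and whether depth limited the calls was not tested.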
